A study of Mus musculus with 12 samples.

Results

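Elastic fibres let blood vessels and other tissues stretch and recoil. Cells lay down a core of cross-linked elastin on a scaffold of microfibrils, which are polymers of fibrillin, and fibulins and EMILIN-1 tie the core to the scaffold. Latent TGF-beta binding proteins (LTBPs) belong to the same structures and hold the growth factor TGF-beta in the matrix in an inactive form, and in brain such fibres are known chiefly from the walls of arteries and from the meninges. The 9 genes described here encode elastin (Eln), fibrillin-1 (Fbn1), fibulins 1, 2 and 5 (Fbln1, Fbln2, Fbln5), EMILIN-1 (Emilin1) and the binding proteins Ltbp1, Ltbp3 and Ltbp4. They were chosen by symbol from the 23260 genes of the table, with the transcript row of highest mean for each and no filter on level. Eln was selected from this series for its small p between the groups, so its difference is given as a description without a test.

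The study asked whether microRNAs placed in the zygote leave a trace in the adult hypothalamus. Zygotes of the hybrid strain C57/Bl6:129S6/SvEvTac received a mixture of 9 microRNA mimics in DPBS, each at 0.11 ng/uL and together at 1 ng/uL (miR group, replicates 1 to 6), or DPBS alone (PBS group, replicates 7 to 12). They were carried by CD1 dams, and the paraventricular nucleus (PVN) of the males was punched at 18 to 20 weeks of age, with 6 animals and 6 poly-A RNA libraries in each group. Levels are RPKM, reads scaled to transcript length and library size, so they can be compared between genes of different length.

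Depth, estimated from the steps of the lowest values, was 22.8 to 45.1 M reads in miR libraries and 27.6 to 38.1 M reads in PBS libraries. The PBS libraries were not alike: Meg3, a long noncoding RNA kept in the nucleus, had 49.9 to 68.1 RPKM in the miR libraries and 50.6 and 58.0 RPKM in PBS replicates 7 and 11, against 158 to 316 RPKM in PBS replicates 8, 9, 10 and 12. The 9 PVN neuron markers were all detected and summed to 2740 to 6225 RPKM in miR libraries and 3001 to 6635 RPKM in PBS libraries. No gene of the table passed limma's test of miR against PBS: 0.0% of 20477 genes were called at an adjusted p below 0.05, where the smallest adjusted p was 0.236, although 3296 genes had an unadjusted p below 0.05. Without PBS replicate 7, 482 genes were called, and without PBS replicate 11, 1 gene.

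The injected microRNAs are shown first because a microRNA pairs with its targets through its seed, bases 2 to 8, and several of the 9 genes hold matches to these seeds. RefSeq (GRCm38.p6) held 8 of the 9 microRNAs. The sequences of those with a match are given 5′ to 3′ with the seed in capitals. The labels name no arm for most of them, and the arms printed are those of the RefSeq names miR-29c-3p, miR-30a-5p, miR-30c-5p, miR-32-5p, miR-193a-5p and miR-204-5p. The miR-30 pair shares its seed.
miR-29c: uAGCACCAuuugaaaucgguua
miR-30a: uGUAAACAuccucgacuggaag
miR-30c: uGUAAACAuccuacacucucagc
miR-32: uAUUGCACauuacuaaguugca
miR-193a-5p: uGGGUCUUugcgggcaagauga
miR-204: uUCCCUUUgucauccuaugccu

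Eln and Fbn1, both known as targets of the miR-29 family, carried the matches to the miR-29c seed, searched as TGGTGCT on the transcript strand of the 3′ untranslated region. Eln held 3 of them and Fbn1 held 2. Each is shown with its surroundings and with the match in capitals, on the minus strand of GRCm38.
Eln, chr5:134703737-134703743: cgacctcatcaacgtTGGTGCTactgc
Eln, chr5:134703490-134703496: atctccaagggaaatTGGTGCTacatg
Eln, chr5:134703477-134703483: attggtgctacatgtTGGTGCTtcttc
Fbn1, chr2:125301174-125301180: tttctgttgtctgttTGGTGCTagtaa
Fbn1, chr2:125300924-125300930: tgtgagggtttgtaaTGGTGCTtatta

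A miR-29c match was present in 13.8% of the 12334 untranslated regions of genes from 1 RPKM. The miR-30 match, TGTTTAC, occurred once each in Fbln1 and Fbln5 and in 15.1% of all regions.
Fbln1, chr15:85286283-85286289, plus strand: tttataaagaataaaTGTTTACttagc
Fbln5, chr12:101747298-101747304, minus strand: agtaccatgctttatTGTTTACaaatg

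Fbn1 also held a miR-32 match, Fbln5 held matches to miR-193a-5p and miR-204, and Ltbp1 held 2 overlapping miR-204 matches. Those motifs were present in 7.05% (miR-32), 8.16% (miR-193a-5p) and 14.9% (miR-204) of all regions. Fbln2, Emilin1, Ltbp3 and Ltbp4 held no match to the 7 distinct seeds searched, miR-532-3p and miR-698 included. Their untranslated regions, of 660, 325, 440 and 256 bases in that order, were the shortest among the members. That of Fbln5 was the longest, at 4177 bases, and the shares were not adjusted for length. A match is a run of letters and not a shown site.

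Over all 12 libraries the binding proteins Ltbp3 and Ltbp4 were the most abundant of the 9, with means of 10.7 and 8.35 RPKM. Fbln5 and Fbln1 followed with 6.30 and 5.72 RPKM, and then came Fbn1 and Eln with 1.29 and 1.28 RPKM. Fbln2 averaged 0.746 RPKM, Ltbp1 0.345 RPKM and Emilin1 0.266 RPKM. Of the 8 steps in this order, the ranges over libraries were apart at 2, between Fbln1 and Fbn1 and between Fbln2 and Ltbp1. Neighbours at the other steps overlapped, Fbn1 being above Eln in 8 of 12 libraries. In reads, the medians per library were about 1709 for Ltbp3 and 1243 for Ltbp4, 118 for Eln and 102 for Fbln2, and 56.5 for Ltbp1 and 29.7 for Emilin1. Counting error alone at the median was thus 9.22% of the value for Eln and 18.3% for Emilin1.

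Elastin itself was low in every miR library and low in only a part of the PBS libraries. Eln (chromosome 5, 135178466 to 135223124 in mm9, the build of the deposited coordinates) had 0.879, 0.774, 0.961, 0.821, 0.663 and 0.895 RPKM in miR replicates 1 to 6, against 0.866, 2.25, 1.87, 2.19, 0.906 and 2.32 RPKM in PBS replicates 7 to 12. PBS replicates 7 and 11 lay within the range of the miR libraries, the other 4 PBS libraries lay above all of them, and the groups therefore overlapped. The means were 0.832 ± 0.105 RPKM in miR libraries and 1.73 ± 0.675 RPKM in PBS libraries (SD, n = 6 each), and the log2 difference, miR minus PBS, was -0.69 with a standard error of 0.19. Differences here are of log2(RPKM + 0.5), a scale on which the changes of weakly expressed genes appear smaller than they are. In bulk tissue, fewer cells of a type and less RNA per cell cannot be told apart.

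Among the binding proteins, Ltbp4 divided the PBS libraries nearly as Eln did, and Ltbp3 and Ltbp1 did not. Ltbp4, which in mouse and human is required for elastic fibre assembly and binds fibulin-5, had 7.46, 5.58, 7.65, 7.49, 5.32 and 6.01 RPKM in miR replicates 1 to 6, against 7.65, 11.3, 11.9, 10.9, 7.19 and 11.7 RPKM in PBS replicates 7 to 12. PBS replicate 11 lay among the miR libraries, PBS replicate 7 lay level with the highest of them, and the other 4 PBS libraries lay well above, so that the groups overlapped in PBS replicate 11. The means were 6.59 ± 1.06 RPKM in miR libraries and 10.1 ± 2.12 RPKM in PBS libraries (SD, n = 6 each). The log2 difference of -0.57 (95% interval -0.87 to -0.26) did not pass limma's test over all genes, with an adjusted p of 0.236. It passed without PBS replicate 7, where the difference was -0.64 with an adjusted p of 0.0469. It also passed with libraries weighted by their closeness to the fit, where it was -0.60 with an adjusted p of 0.0347. The lowest weights went to PBS replicates 7 (0.517), 9 (0.543) and 11 (0.587). Leaving out PBS replicate 7 removes a PBS library near the miR group. The weights lower the part of PBS replicates 7 and 11, near the miR group, and of PBS replicate 9, where Ltbp4 was highest. Many other genes were called in these fits too, as counted in the closing section.

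Ltbp3, a binding protein known for its part in skeletal growth and tooth enamel, had a median of 9.998 RPKM in miR libraries (8.93 to 11.3) and of 11.6 RPKM in PBS libraries (9.70 to 13.7). The ranges overlapped, with PBS replicates 7, 10 and 11 below the highest miR library, and each of the 6 miR values was under the median of the PBS group. Its log2 difference was -0.20 (standard error 0.09, adjusted p = 0.310 by limma). Ltbp1, which links latent TGF-beta to fibrillin, had a median of 0.325 RPKM in miR libraries (0.245 to 0.505) and of 0.347 RPKM in PBS libraries (0.246 to 0.422), with a log2 difference of 0.00 (95% interval -0.15 to 0.16). Its highest library, miR replicate 4, was in one group and its next highest, PBS replicate 10, in the other.

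**Figure D1:**
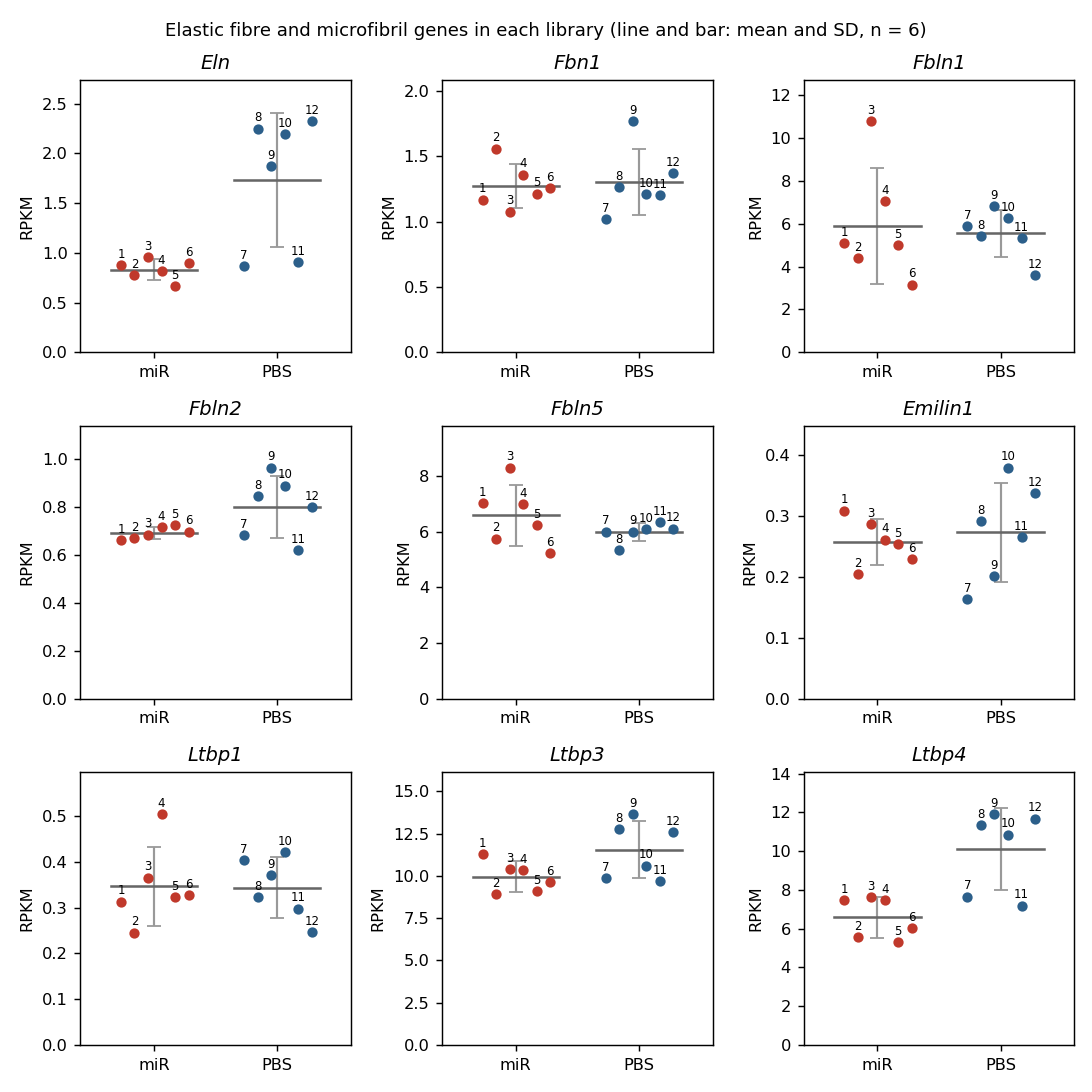
RPKM of the 9 genes (vertical axes, from 0) in each library of the miR and PBS groups (numbers are replicates; lines and bars are mean and SD, n = 6 each). In Eln and Ltbp4 the PBS group divides, with replicates 7 and 11 at the level of the miR libraries and replicates 8, 9, 10 and 12 above them.

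Fibrillin-1, the main protein of microfibrils and the gene mutated in Marfan syndrome, did not differ detectably between the groups. Fbn1 had a median of 1.24 RPKM in miR libraries (1.08 to 1.56) and of 1.24 RPKM in PBS libraries (1.019 to 1.77). Its highest value was in PBS replicate 9 and its lowest in PBS replicate 7, with the miR libraries between them, and the log2 difference was -0.02 (95% interval -0.23 to 0.19, adjusted p = 0.936). Emilin1, whose protein sits at the border of elastin and microfibrils, had a median of 0.258 RPKM in miR libraries (0.205 to 0.309) and of 0.279 RPKM in PBS libraries (0.164 to 0.380). The PBS range enclosed the miR range, and the log2 difference was -0.02 (adjusted p = 0.876). The direction of Fbn1 and of Emilin1 turned under quantile normalization, to 0.03 and 0.01.

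The fibulins did not share a common pattern. Fbln2, a fibulin of vessel walls and basement membranes, was close to constant in the miR libraries, at 0.662, 0.670, 0.684, 0.716, 0.723 and 0.697 RPKM in replicates 1 to 6, against 0.683, 0.846, 0.963, 0.888, 0.621 and 0.797 RPKM in PBS replicates 7 to 12. PBS replicates 7 and 11 lay among or below the miR libraries and the other 4 above all of them, which is the division of Eln and Ltbp4 at a smaller size. The means were 0.692 ± 0.0244 RPKM in miR libraries and 0.7998 ± 0.128 RPKM in PBS libraries (SD, n = 6 each), a log2 difference of -0.12 (standard error 0.07, adjusted p = 0.388).

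Fbln5, which binds elastin and the cross-linking enzymes and is required for elastic fibres in mice, was the member with the highest positive difference. It had 7.03, 5.76, 8.31, 7.01, 6.23 and 5.25 RPKM in miR replicates 1 to 6, against 6.01, 5.36, 6.01, 6.09, 6.36 and 6.12 RPKM in PBS replicates 7 to 12. The PBS libraries lay inside the miR range, and the log2 difference of 0.12 (95% interval -0.08 to 0.31) had an adjusted p of 0.545. PBS replicates 7 and 11 did not stand apart from the other PBS libraries in this gene.

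Fbln1, a fibulin found in fibronectin fibrils as well as elastic fibres, was the most variable member within the miR group. It had 5.09, 4.37, 10.8, 7.05, 4.99 and 3.15 RPKM in miR replicates 1 to 6, against 5.88, 5.41, 6.82, 6.24, 5.32 and 3.61 RPKM in PBS replicates 7 to 12. The highest and the lowest library were both in the miR group, and the log2 difference was 0.01 (95% interval -0.49 to 0.51). It turned to -0.17 without miR replicate 3, to -0.06 without miR replicate 4 and to -0.10 without PBS replicate 12, so that its direction rested on single libraries.

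Counted together, the members other than Eln gave 0 of 8 calls at an adjusted p below 0.05, beside the 0.0% of all genes. At an unadjusted p below 0.05, 2 of 8 had lower values in miR (Ltbp4 and Ltbp3), against 9.24% of all genes, and 0 of 8 had higher values, against 6.85% of all genes. Of genes from 1 RPKM, the class of both, 10.8% had lower values at that p. The median log2 difference of the 8 was -0.02, against 0.00 over all genes. No member of the 9 had groups without overlap, which 0.249% of all genes had with miR below PBS and 0.186% with miR above PBS. Without PBS replicates 7 and 11, 3 of 8 members were called, namely Ltbp4 at -0.77, Ltbp3 at -0.30 and Fbln2 at -0.20, with adjusted p of 0.00122, 0.0291 and 0.0290, and Eln was at -0.998. Leaving out just these libraries removes the PBS libraries that lie with the miR group, and 3005 genes of the table were then called.

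**Figure D2:**
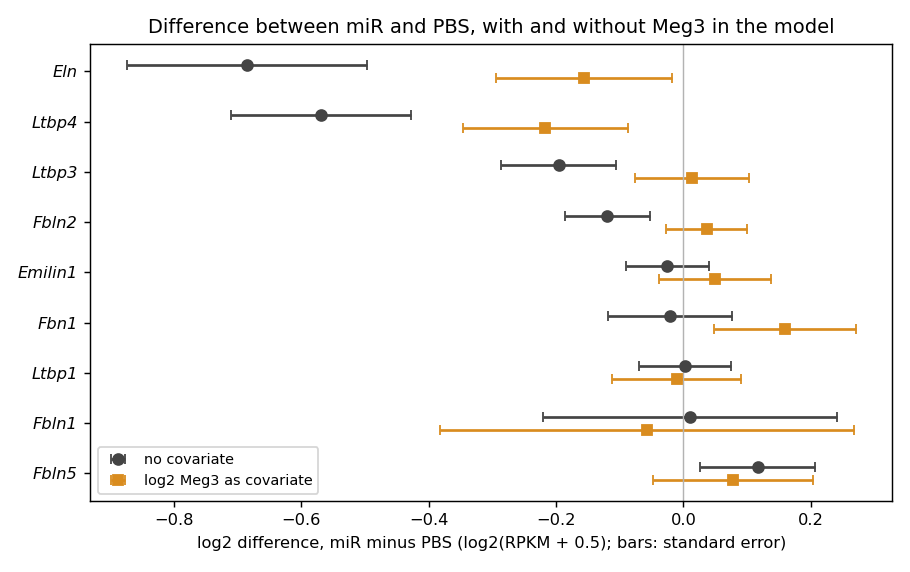
Log2 difference, miR minus PBS, of the 9 genes (horizontal axis, log2(RPKM + 0.5); bars are standard errors) without a covariate and with log2 Meg3 in the model. With Meg3 in the model Eln lies at -0.16 and Ltbp4 at -0.22, and Ltbp3 and Fbln2 lie at 0.01 and 0.04.

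Covariation with Meg3 was strongest in Eln and Ltbp4. In a model with the group and log2 Meg3, the slope of Eln was 0.40 log2 units for each log2 unit of Meg3 (standard error 0.07), given as a description. Ltbp4 had a slope of 0.27 (adjusted p = 0.0540), Ltbp3 of 0.16 (adjusted p = 0.0883), Fbln2 of 0.12 (adjusted p = 0.0741) and Fbn1 of 0.14 (adjusted p = 0.219). Emilin1 had 0.06, Ltbp1 -0.01, Fbln5 -0.03 and Fbln1 -0.05. None of the 8 tested slopes passed an adjusted p of 0.05, against 2.37% of genes called with a positive slope and 0.772% with a negative one. At an unadjusted p below 0.05 the slopes of 4 of 8 were positive (Ltbp4, Ltbp3, Fbln2 and Fbn1), against 9.11% of genes. Within the PBS libraries alone the slope of Ltbp4 was 0.27 with an adjusted p of 0.0359. In that fit 0.907% of 20064 genes were called with a positive slope, Meg3 itself included. Meg3 was at 50.6 and 58.0 RPKM in PBS replicates 7 and 11, against 158 to 316 RPKM in the other PBS libraries.

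Without PBS replicates 7 and 11 the slope of Eln turned to -0.10, that of Ltbp4 was 0.07 and that of Fbln2 0.07, while Ltbp3 was at 0.15 and Fbn1 at 0.28. None of these was called in that fit, with adjusted p of 0.735 or above for the tested members, and 4 genes of the table were called, Meg3 itself included. Meg3 and Eln did not rank the 4 high PBS libraries alike: Meg3 was highest in PBS replicate 9, where Eln was lowest of the 4. Meg3 falls into separate clusters over the 12 libraries, so no correlation is given over all of them. Within the miR group Pearson's r with Meg3 on the log2 scale ran from -0.48 (Fbln5) to 0.37 (Eln) over 6 libraries, and Spearman's rank correlation from -0.09 (Fbn1 and Fbln5) to 0.60 (Ltbp1). The lowest exact permutation p of the 9 genes was 0.324 for r and 0.242 for the rank correlation, and every adjusted p of r over the 19973 genes compared was 1. Because 6 libraries have only 720 orders, the exact p has a floor. The adjustment could therefore call a gene only if many genes reached that floor. Without miR replicates 2 and 6, the libraries farthest from the median of Meg3, r of Eln was 0.23 over 4 libraries and r of the 9 genes ran from -0.20 (Emilin1) to 0.95 (Ltbp1).

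**Figure D3:**
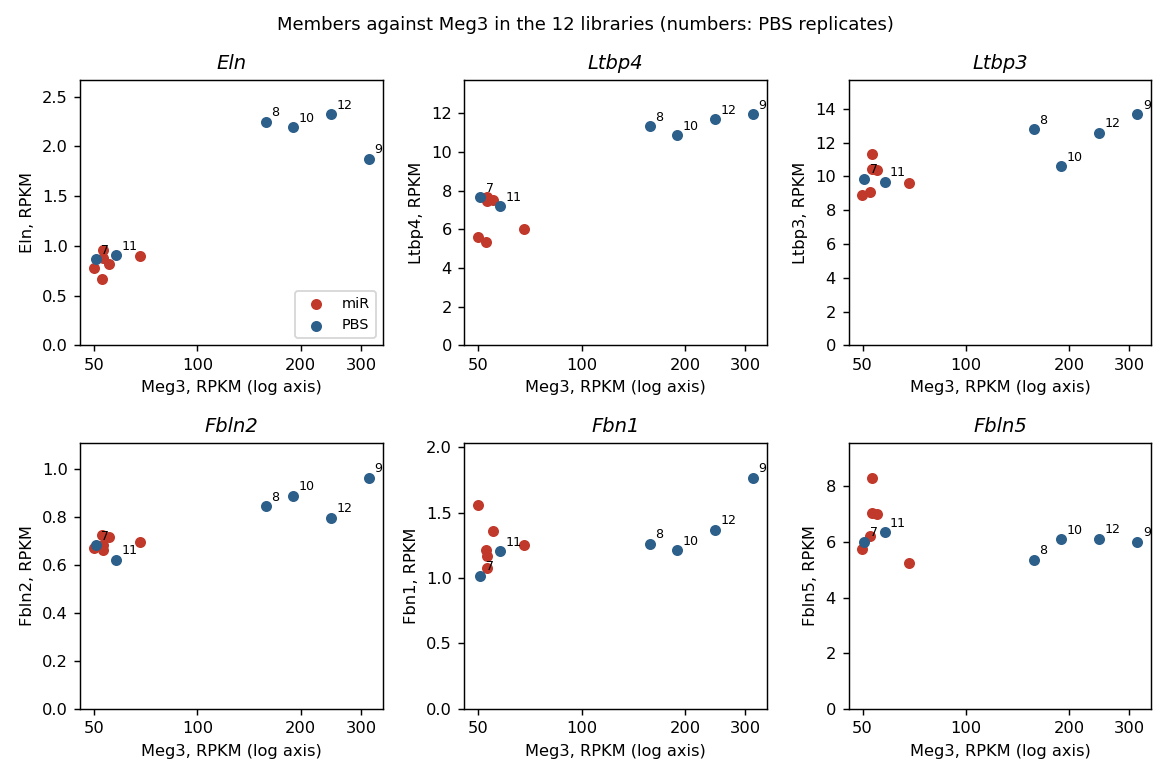
RPKM of 6 members (vertical axes, from 0) against Meg3 (horizontal log axis, RPKM) in the 12 libraries, with PBS replicates numbered. The miR libraries and PBS replicates 7 and 11 lie together at 49.9 to 68.1 RPKM of Meg3, and the other 4 PBS libraries lie at 158 to 316 RPKM with higher Eln and Ltbp4.

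The genes most like each member were sought by Pearson's correlation of log2(RPKM + 0.5) over the 12 libraries among genes from 1 RPKM, as a description. For Eln they were Arhgef1 (r = 0.994), Arrdc1 (0.992) and Tmem86b (0.992), and for Ltbp4 they were Rnf31, a subunit of the linear ubiquitin ligase (0.986), Zfp335 (0.980) and Gga1 (0.980). None of the 6 is a matrix gene. Arhgef1 had 4.38 to 5.51 RPKM in miR libraries, and 5.23 and 5.78 RPKM in PBS replicates 7 and 11, against 9.97 to 11.9 RPKM in the other PBS libraries, so its likeness to Eln was the likeness of a step shared by the same libraries.

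Fbln1 went with another set of genes, Rtn4rl1 (r = 0.981), the neuronal pentraxin Nptx2 (0.955) and Gbx2 (0.952), a homeobox factor known from the thalamus. Gbx2 had 3.50, 1.83, 16.5, 8.22, 4.63 and 0.498 RPKM in miR replicates 1 to 6, against 7.09, 2.27, 7.38, 5.37, 4.16 and 0.989 RPKM in PBS replicates 7 to 12. Its highest and lowest libraries, miR replicates 3 and 6, were those of Fbln1, and the groups overlapped. Whether the share of neighbouring tissue in the punches had a part in the spread of Fbln1 was not tested. The genes most like Ltbp1 were Fam40b, D430041D05Rik and the synaptic organiser Cbln1 (0.931 to 0.935). For Fbln2, Fbn1, Fbln5, Emilin1 and Ltbp3 the highest r lay between 0.890 (Cyba, for Fbln5) and 0.949 (Sdccag3, for Fbln2).

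Of the other genes of the pathway, 90 distinct genes of 5 lists, none was called by limma, as no gene of the table was. Without PBS replicate 7, 2 were called, and without PBS replicates 7 and 11, 16 were. Over all genes 482 were called without PBS replicate 7, of 20437 genes in that fit. Without PBS replicates 7 and 11, 3005 of 20401 genes were called. At an unadjusted p below 0.05, 9 of the 90 had lower and 6 had higher values in miR, beside 9.24% and 6.85% of all genes. Their median log2 difference was -0.03, against 0.00 over all genes. Among 27 further microfibril and elastic fibre genes, 4 had lower and 1 had higher values at that p, with a median of -0.04. Adamts10, a secreted protease-like protein that promotes fibrillin-1 microfibrils, had 0.900 to 1.63 RPKM in miR libraries and 1.44 to 4.42 RPKM in PBS libraries. Its log2 difference was -0.85 (adjusted p = 0.236), and its slope on Meg3, 0.52, was the only one of the 27 to pass (adjusted p = 0.00183). Mfap2, a small protein bound to fibrillin, had 1.92 to 3.00 RPKM in miR libraries and 2.69 to 5.06 RPKM in PBS libraries, a log2 difference of -0.52 (adjusted p = 0.236).

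None of the close relatives of the members passed the test, which no gene of the table passed. Fibrillin-2 (Fbn2) averaged 0.427 ± 0.0742 RPKM in miR libraries and 0.5005 ± 0.106 RPKM in PBS libraries (SD, n = 6 each), with an adjusted p of 0.501 by limma. The fibulin Efemp2, required for elastin cross-linking in mice, averaged 7.48 ± 0.869 RPKM in miR and 7.89 ± 0.729 RPKM in PBS (adjusted p = 0.669), and Efemp1 averaged 1.30 ± 0.295 RPKM in miR and 1.27 ± 0.211 RPKM in PBS (adjusted p = 0.957). Mfap4 and Mfap5 were at 0.334 RPKM or below in every library.

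Of the 6 genes for cross-linking enzymes, which join elastin molecules, all had negative differences and 1, Loxl3, had an unadjusted p below 0.05. Of all 20477 genes, 10232 had negative differences. Loxl3 had 2.75 to 3.29 RPKM in miR libraries and 2.95 to 4.32 RPKM in PBS libraries, a log2 difference of -0.22 (adjusted p = 0.277). Lox, the founding lysyl oxidase, was at 0.0450 RPKM or below in every library, and Loxl1 averaged 1.05 ± 0.204 RPKM in miR and 1.06 ± 0.127 RPKM in PBS. Of 21 elastin receptors and elastin-degrading enzymes, 2 had higher and 0 had lower values at an unadjusted p below 0.05. The shares over all genes at that p were 6.85% higher and 9.24% lower. Ctss, the elastin-cleaving cathepsin S of microglia and macrophages, had 39.0 to 48.3 RPKM in miR libraries and 30.3 to 38.9 RPKM in PBS libraries, which did not overlap (log2 difference 0.24, adjusted p = 0.236). Over all genes 0.186% had every miR library above every PBS library.

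The differences of the TGF-beta genes ran both ways. Of 27 pathway genes, 3 had higher values and 2 lower values in miR at an unadjusted p below 0.05. Over all genes 6.85% had higher and 9.24% had lower values at that p. The lower pathway genes were Acvrl1 (-0.25) and Eng (-0.33), receptors of endothelial cells. The ligands Tgfb1, Tgfb2 and Tgfb3 had log2 differences of -0.13, 0.08 and 0.03 with adjusted p of 0.667, 0.615 and 0.871. Of 12 known TGF-beta target genes, 2 were lower and 1 was higher at that p, Tagln at -0.35 (adjusted p = 0.309) and Skil at 0.14 (adjusted p = 0.303) among them.

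**Figure D4:**
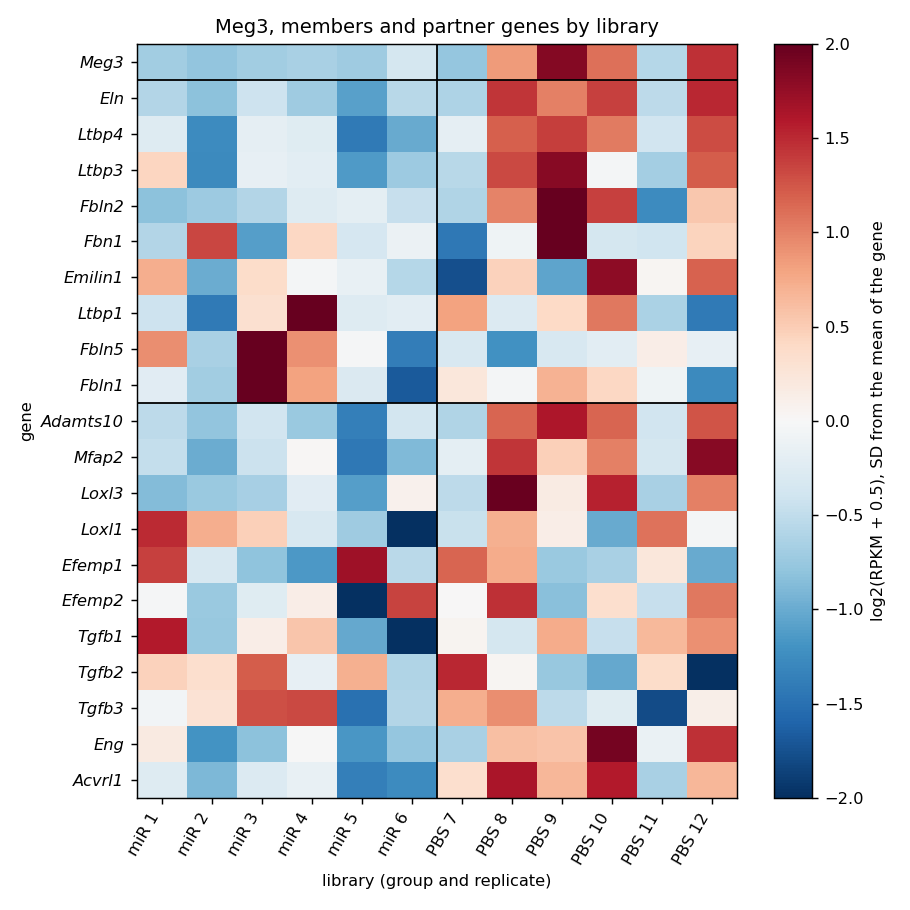
Level of Meg3, the 9 members and 11 partner genes in each library (columns, miR replicates 1 to 6 and PBS replicates 7 to 12; colour, SD from the mean of the gene on log2(RPKM + 0.5), limited to 2 SD). Eln, Ltbp4 and Adamts10 are high in PBS replicates 8, 9, 10 and 12, and Fbln1 and Fbln5 are highest in miR replicate 3.

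Markers of vessel wall cells mostly had differences of the same sign as Eln and Ltbp4. Over all 20477 genes, 10232 had negative differences and 9.24% had lower values at an unadjusted p below 0.05. Of 10 pericyte markers all 10 had negative differences and 7 had an unadjusted p below 0.05, with summed levels of 31.6 to 38.9 RPKM in miR libraries and 34.6 to 51.2 RPKM in PBS libraries. Of 12 endothelial markers all 12 had negative differences and 6 that p, with sums of 80.9 to 99.8 RPKM in miR and 91.0 to 110.5 RPKM in PBS. Of 10 smooth muscle markers 9 had negative differences and 3 that p, with sums of 14.6 to 18.2 RPKM in miR and 14.5 to 25.2 RPKM in PBS. Acta2, the actin of smooth muscle, had a median of 2.32 RPKM in miR and 3.03 RPKM in PBS. Of 15 fibroblast markers of the meninges and vessel surroundings 11 had negative differences and 4 that p, with sums of 24.5 to 29.1 RPKM in miR and 26.5 to 31.5 RPKM in PBS. By library, the pericyte sums were lowest among PBS libraries in replicates 7 and 11 (34.6 and 39.3 RPKM), as Eln was. The endothelial sum was 106.5 RPKM in PBS replicate 11, where Eln was low, and 98.7 RPKM in PBS replicate 12, where Eln was highest. The smooth muscle sum was 18.7 RPKM in PBS replicate 7, above all miR libraries, and 14.5 and 16.6 RPKM in PBS replicates 11 and 12. The lowest PBS sum of the fibroblast list was in replicate 9. No marker of these lists was at 0 in all libraries, and the part of these cells in the values of Eln and Ltbp4 was not tested.

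Collagen chains, the other main fibres of the vessel wall, had negative differences in 11 of 13 genes. Of the 13 chains 8 had lower values in miR at an unadjusted p below 0.05, the median log2 difference was -0.36, and the slopes of 6 on Meg3 passed an adjusted p of 0.05. Over all genes 9.24% had lower values at that p, the median was 0.00 and 2.37% of slopes were called positive. Col16a1, a chain found with fibrillin microfibrils in skin, had 0.974 to 1.39 RPKM in miR libraries and 1.395 to 4.54 RPKM in PBS libraries (log2 difference -0.92, adjusted p = 0.236). The groups were apart by a narrow margin, and 0.249% of all genes had every miR library below every PBS library. PBS replicates 7 and 11 had 1.52 and 1.395 RPKM, and the other PBS libraries had 3.09 to 4.54 RPKM. The lists of other cells did not run the same way, and over all genes 6.85% had higher values at an unadjusted p below 0.05. Of 8 astrocyte markers all had positive differences and 4 an unadjusted p below 0.05 (sums 617 to 685 RPKM in miR and 514 to 659 RPKM in PBS), 1 of 8 microglial markers was higher at that p (sums 95.4 to 113.7 RPKM in miR and 85.5 to 109.7 RPKM in PBS), and 0 of 9 choroid plexus markers had such a p (sums 39.0 to 49.4 RPKM in miR and 34.3 to 67.0 RPKM in PBS). All of these p-values are limma's, and no gene of these lists passed after adjustment over all genes.

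Transcript GC content differed among the members, and the differences of all genes ran with it. The members of highest GC content were Ltbp4 (62.5%), Ltbp3 (61.5%), Emilin1 (61.1%), Eln (58.8%) and Fbln2 (57.2%), against a median of 50.6% in genes from 1 RPKM, while Fbln5 had 46.9%. Over all such genes the median log2 difference ran from 0.12 in the lowest of 10 classes of GC content to -0.14 in the highest. With each library corrected for its GC trend, Eln was at -0.54 and Ltbp4 at -0.42 (adjusted p = 0.248), while Ltbp3 was at -0.04, Fbln2 at -0.01 and Emilin1, at -0.02 without the correction, at 0.13 (adjusted p = 0.395). The part of GC content in these differences was not tested.

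**Figure D5:**
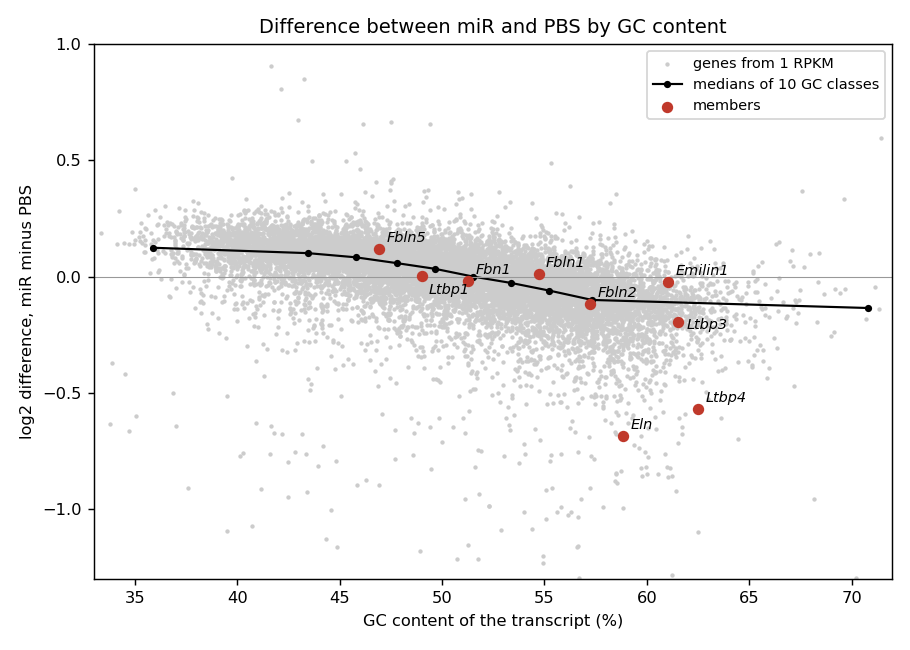
Log2 difference, miR minus PBS (vertical axis), against GC content of the transcript (horizontal axis, %) for the 13004 genes from 1 RPKM with a transcript sequence, of which 17 lie outside the axes; the line joins the medians of 10 classes of GC content, and red points are the members. Eln and Ltbp4 lie at -0.69 and -0.57, below the median of -0.14 in the highest class, and Fbln5 lies at 0.12.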

How the data were processed

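RPKM values were deposited by the authors in 1 table of 30399 transcript rows. The submitters' processing notes name mm9 and edgeR, without their part. The sources used here give no aligner, counter or strand setting. Per the labels' protocols, tissue was punched with a 1.0 mm needle from 2 slices of 300 µm. Libraries were stranded and poly-A selected, with 250 ng of RNA as input. Per the series design, libraries ran on 2 lanes.

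Genes took the transcript row of highest mean. The 20477 genes above 0 in any library were fitted as log2(RPKM + 0.5) with limma 3.58.1 in R 4.3.3 (2-sided, variance-trended empirical Bayes, p adjusted by Benjamini-Hochberg over all genes, threshold 0.05). Depth was read from steps of low values, within 2%, and is approximate; intervals cover spread between animals. Seeds and GC content used GENCODE release 21 (GRCm38) transcripts matched by RefSeq accession (97.0% of genes; all 9 members). Named genes are the members, Meg3, partners by role, the 2 list members of smallest p from 1 RPKM and the 3 genes most like each member. The members and lists were chosen with earlier results of these data known. No library pair differed by less than 2.63 times sampling noise, so none was counted as a copy. Alternatives were other pseudocounts (0.1 and 1 RPKM), level filters, scalings, variance models, covariates, GC correction in 20 bins, row means and left-out libraries; for the pathway lists, library weights and left-out libraries were added after seeing the data. The fit was tested on simulated data, where 6.81% of calls of group differences and 8.24% of calls of slopes were false. Genes were drawn independently there, so that test does not cover the division of the PBS libraries shared by many genes. Figures were drawn with matplotlib 3.10.9.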

Additional observations from a re-analysis of the deposited data

Results flagged for a closer look

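Of the 18 groups of 6 libraries formed by the 9 genes, 1 held a library far from the rest. Fbln5 in PBS replicate 8 was at 5.36 RPKM, against 6.01 to 6.36 RPKM in the other PBS libraries, and its gap to the nearest was 0.647 of the group's range, above Dixon's critical value for 6 libraries. Chance gives such a gap in about 1 of 20 groups. PBS replicate 8 was not the lowest PBS library in Eln, Ltbp4 or Ltbp3.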

How the results depend on the processing

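No paired analysis was possible because the miR replicates are numbered 1 to 6 and the PBS replicates 7 to 12, with no number shared. Calls of miR against PBS over all genes numbered 0, and 1063 with library weights, 1 with Meg3 as a covariate, 0 to 482 with 1 library left out (1 without PBS replicate 11, 482 without PBS replicate 7) and 3005 without PBS replicates 7 and 11. The members gave 0 calls, and 1 with library weights, 0 to 1 with 1 library left out and 3 without PBS replicates 7 and 11. The pathway lists gave 0, and 6 with library weights, 0 to 2 with 1 library left out and 16 without PBS replicates 7 and 11. Slopes of members on Meg3 gave 0 calls, and 1 with a pseudocount of 1 RPKM (Fbln2), with filters at 1 and 5 RPKM, with row means, in PBS libraries alone (Ltbp4 each time), and 0 to 1 with 1 library left out. Over all genes, Meg3 included, 644 of 20477 slopes were called, and 663 with that pseudocount. The filters gave 668 of 13273 and 490 of 9159, row means 776 of 20477, and PBS libraries alone 193 of 20064. With 1 library left out, 132 to 1045 slopes were called.

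The differences of Eln, Ltbp4 and Fbln5 kept their sign under every alternative, and those of the other members turned under some; the cause was not tested. With Meg3 as a covariate Fbn1 was at 0.16, Fbln1 at -0.057, Fbln2 at 0.037, Emilin1 at 0.050, Ltbp1 at -0.010 and Ltbp3 at 0.013, and with the noncoding RNA score at 0.16, -0.036, 0.035, 0.026, -0.021 and 0.018 in the same order. Quantile normalization gave 0.031 for Fbn1 and 0.012 for Emilin1, and GC correction 0.13 for Emilin1 and -0.040 for Ltbp1. With 1 library left out the range was -0.068 to 0.047 for Fbn1, -0.17 to 0.15 for Fbln1, -0.068 to 0.014 for Emilin1 and -0.048 to 0.038 for Ltbp1. Slopes ranged from -0.0066 to 0.12 for Emilin1, -0.041 to 0.032 for Ltbp1 and -0.17 to 0.041 for Fbln1. Without PBS replicates 7 and 11 slopes were -0.10 for Eln, -0.17 for Emilin1 and 0.0092 for Ltbp1, and in miR libraries alone -0.15 for Fbn1, -0.078 for Emilin1, 0.16 for Ltbp1 and -0.051 for Ltbp4. The median difference of genes from 1 RPKM was 0.02 under median scaling and under quantile normalization, against 0.01 without. Depth limits Emilin1 and Ltbp1, with medians of 29.7 and 56.5 reads.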
